A study of Arabidopsis thaliana with 6 samples.

Results

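Cuticular wax is the mixture of very-long-chain lipids that waterproofs the plant surface, and the genes described here are 10 of its Arabidopsis synthesis and export genes, CER1, CER2, CER3, CER4, CER6, KCS1, MAH1, WSD1, ABCG11 and ABCG12. They were selected by locus identifier for their known roles, with earlier results of these data known, and all 10 were found among the 31608 genes and loci of the deposited tables. PolyA RNA of siliques, the seed-bearing fruits, was sequenced 4 days after pollination in the wild type Col-0 and in the mutant mee45-1, named for the B3-domain gene MEE45. There were 3 libraries of each genotype, 6 in all, and the labels call the tissue silique in one field and seed in another. No agent was applied to either genotype per the labels, which give neither the nature of the mee45-1 lesion nor the origin of the repeats. One label speaks of 3 biological repeats and another of collection in duplicate, so the number of independent collections is in doubt, and the p-values cover a spread between libraries that may be technical.

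The authors averaged the values of each genotype before depositing them, so that no value per library and no spread between libraries can be given here. Mean depth per library was 20242476 estimated counts for Col-0 and 20530953 for mee45-1. The words rose and fell stand for genes with an adjusted p under 0.05 in the authors' deposited table, and all others are said not to have passed the test. A log2 fold change is the log2 ratio, mee45-1 over Col-0, of mean FPKM, the fragments per length of transcript and per depth of library. The targeted gene MEE45 had 62 summed counts in the Col-0 libraries and 3 in those of mee45-1, and the authors' deposited table gives it an adjusted p of 4.34e-06.

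Wax is built in the endoplasmic reticulum of epidermal cells from fatty acids that an elongase complex lengthens. One branch turns the long acyl chains into alkanes and the secondary alcohols and ketones made from them, and another reduces them to primary alcohols that can be joined to fatty acids as wax esters. ABC transporters of the G subfamily carry the products across the plasma membrane towards the cuticle. The same epidermal cells also make cutin, the polyester that forms the framework of the cuticle.

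Of the 10 wax genes, 4 rose in mee45-1, none fell, and the other 6 missed the threshold. Over all 25434 genes tested, 6.67% were higher and 9.15% lower by the same rule, 15.8% in all. Among the 2602 genes with mean counts at or above those of WSD1, the least abundant of the 10, 10.5% were higher and 10.6% lower. The genes that rose were the alkane-branch genes MAH1 and CER1 and the alcohol-branch genes CER4 and WSD1. The log2 fold change was above 0 for 9 genes and below 0 for 1, with a median of 0.32, against a median of 0.0018 over the 24055 tested genes above 0 in both genotypes and 0.037 over the 2602 abundant genes. At an unadjusted p under 0.05 in the authors' deposited table, 7 of the 10 differed, 6 higher and 1 lower, against 11.4% and 13.5% of all genes tested. Stricter rules kept 3 of the 10 as higher at an adjusted p under 0.01, against 4.24% of genes tested, 2 with a change of at least 1.5-fold as well as the adjusted p under 0.05, against 4.02%, and 0 with at least 2-fold, against 1.93%.

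The stretch of 250 bases before the annotated start was read for each gene from the TAIR10.1 reference, and 6 are shown, those of the 4 genes that rose, that of CER6, which held the most matches to the motifs searched, and that of ABCG11, the only one with an L1 box. The windows are chr1:418166-418415 for CER1, chr1:21385710-21385959 for MAH1, chr4:16207957-16208206 for CER4, chr5:14767176-14767425 for WSD1, chr1:25715025-25715274 for CER6 and chr1:6142152-6142401 for ABCG11. CER1, WSD1 and ABCG11 lie on the plus strand, and MAH1, CER4 and CER6 on the minus strand. Each is written 5′ to 3′ towards the gene, with capitals marking matches on either strand to any of 5 short motifs named after the sequences.
CER1: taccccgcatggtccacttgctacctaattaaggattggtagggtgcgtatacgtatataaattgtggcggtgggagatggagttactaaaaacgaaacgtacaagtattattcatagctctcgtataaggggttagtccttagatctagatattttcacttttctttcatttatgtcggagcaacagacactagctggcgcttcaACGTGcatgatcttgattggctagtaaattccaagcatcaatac
MAH1: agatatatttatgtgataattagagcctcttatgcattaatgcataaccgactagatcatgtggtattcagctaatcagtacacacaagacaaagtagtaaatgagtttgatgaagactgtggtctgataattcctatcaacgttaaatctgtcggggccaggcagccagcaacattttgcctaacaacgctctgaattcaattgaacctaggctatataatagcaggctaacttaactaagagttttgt
CER4: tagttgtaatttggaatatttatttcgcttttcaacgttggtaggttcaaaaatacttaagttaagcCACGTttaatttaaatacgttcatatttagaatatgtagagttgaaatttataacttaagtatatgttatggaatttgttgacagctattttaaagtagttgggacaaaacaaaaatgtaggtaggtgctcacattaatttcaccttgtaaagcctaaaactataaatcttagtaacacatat
WSD1: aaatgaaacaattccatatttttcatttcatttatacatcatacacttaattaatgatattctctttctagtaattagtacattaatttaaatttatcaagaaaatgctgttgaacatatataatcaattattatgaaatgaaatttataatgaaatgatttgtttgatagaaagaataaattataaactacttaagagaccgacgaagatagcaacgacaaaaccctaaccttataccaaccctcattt
CER6: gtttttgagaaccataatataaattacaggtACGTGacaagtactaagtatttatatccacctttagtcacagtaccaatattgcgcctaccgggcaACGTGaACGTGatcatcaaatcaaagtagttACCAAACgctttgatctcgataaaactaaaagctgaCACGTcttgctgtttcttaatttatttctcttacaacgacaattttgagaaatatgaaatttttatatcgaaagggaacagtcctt
ABCG11: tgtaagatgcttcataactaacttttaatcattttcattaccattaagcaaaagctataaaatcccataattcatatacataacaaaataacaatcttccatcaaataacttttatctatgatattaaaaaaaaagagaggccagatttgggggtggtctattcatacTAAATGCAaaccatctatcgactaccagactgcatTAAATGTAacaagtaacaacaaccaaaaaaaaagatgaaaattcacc

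The motifs searched on both strands were the L1 box, found before epidermal genes and bound by homeodomain factors such as ATML1, in its forms TAAATGCA and TAAATGTA, the MYB core ACCNAAC, the GCC box core GCCGCC of ethylene response factors, and the ACGT element ACGTG. Among the genes that rose, ACGTG lay once before CER1, at -44 to -40 from the start, and once before CER4, at -183 to -179. No motif matched before MAH1 or WSD1, nor before CER3, KCS1 and ABCG12, which did not pass the test. ABCG11 held both forms of the L1 box, at -82 to -75 and at -47 to -40, and no other of the 10 windows held either, while 4.49% of 27443 windows of protein-coding genes did. CER6 held ACGTG at 4 places and the MYB core at -122 to -116. ACGTG lay before 4 of the 10 genes and 22.9% of all windows, and the MYB core before 2 of the 10, CER2 and CER6, and 14.5% of all windows. The window of CER2, alone among the 10, overlaps another annotated gene, AT4G24500. The GCC box core, in 1.87% of all windows, was before none of the 10. A match is a description of these letters and not a known site, and the windows follow the annotated start, which may not be the start used in siliques.

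All 10 genes were abundant. Their mean FPKM ranged from 45.7 to 470 in Col-0 and from 57.9 to 501 in mee45-1, against a median over tested genes of 8.71 and 8.47. The least abundant, WSD1, still ranked within the top 10.2% of all genes by FPKM in Col-0 and the top 7.44% in mee45-1. Summed counts ran from 4589 to 66571 per gene and genotype. Exact 95% binomial counting intervals on the log2 ratio of counts were therefore at most 0.11 wide, but they cover counting error only and leave out the spread between libraries. All 10 intervals excluded 0, including those of the 6 genes that did not pass the test.

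**Figure D1:**
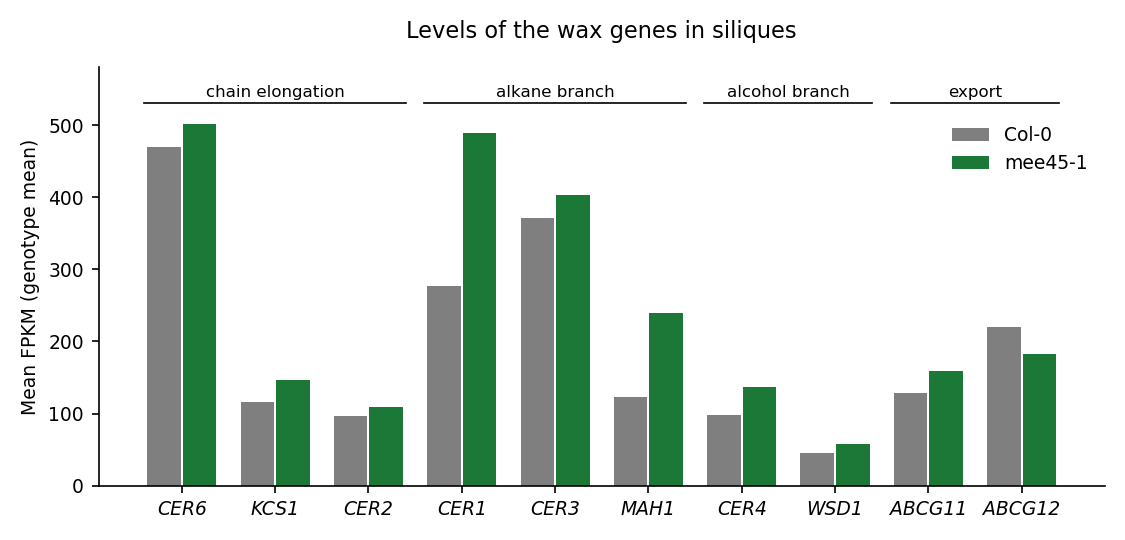
Mean FPKM of the 10 wax genes in siliques of Col-0 (grey) and mee45-1 (green), grouped by role; bars are the authors' genotype means, and no error can be drawn because no values per library were used. CER1 stands at 277 and 489 and MAH1 at 123 and 240, whereas CER6 and CER3 differ little between the bars.

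The elongation genes did not pass the test. CER6 (AT1G68530, deposited as CUT1, chr1:25712414-25715024), the 3-ketoacyl-CoA synthase of the longest wax chains, had the highest level of the 10 in both genotypes, with a mean of 470 FPKM in Col-0 and 501 in mee45-1. Its log2 fold change was 0.10, and the authors' deposited table gives it an adjusted p of 0.755. KCS1 (AT1G01120, chr1:57164-59215), another 3-ketoacyl-CoA synthase of very-long-chain synthesis, had 116 and 146 FPKM, a log2 fold change of 0.33 and, from the authors' deposited table, an adjusted p of 0.0913. CER2 (AT4G24510, chr4:12660687-12662656), a protein that lets the elongase act on the longest chains, had 97.0 and 109 FPKM and a log2 fold change of 0.17. Its adjusted p was 0.456 in the authors' deposited table. Summed over these 3 genes, the level was 682 FPKM in Col-0 and 757 in mee45-1.

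The alkane branch held the changes of greatest size among the 10. CER1 (AT1G02205, chr1:418416-422579), which makes alkanes from very-long-chain acyl chains together with CER3, had a mean of 277 FPKM in Col-0 and 489 in mee45-1. It rose by 0.82 on the log2 scale, with a counting interval of 0.79 to 0.82 on the ratio of counts, and the authors' deposited table gives it an adjusted p of 3.88e-05. MAH1 (AT1G57750, deposited as CYP96A15, chr1:21383812-21385709), the midchain alkane hydroxylase that forms secondary alcohols and ketones from alkanes, had 123 FPKM in Col-0 and 240 in mee45-1. It rose by 0.96, with a counting interval of 0.91 to 0.97, and the authors' deposited table gives it an adjusted p of 3.05e-06.

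CER3 (AT5G57800, chr5:23420184-23424117), the partner of CER1 in alkane formation, had 372 FPKM in Col-0 and 403 in mee45-1, a log2 fold change of 0.12 and, from the authors' deposited table, an adjusted p of 0.701. The counting intervals of CER1 and of CER3, 0.09 to 0.12, did not overlap. Whether the change of CER1 differed from that of CER3 beyond the spread between libraries was not tested, as genotype means do not allow it. In mean FPKM, CER1 stood at 0.744 times CER3 in Col-0 and at 1.21 times CER3 in mee45-1, so that their order was exchanged. The alkane branch took 39.6% of the summed FPKM of the 10 genes in Col-0 and 46.7% in mee45-1.

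Both genes of the alcohol branch rose. CER4 (AT4G33790, deposited as FAR3, chr4:16204096-16207956), the fatty acyl-CoA reductase that makes primary alcohols, had 97.5 FPKM in Col-0 and 137 in mee45-1. It rose by 0.49, with a counting interval of 0.44 to 0.51, and the authors' deposited table gives it an adjusted p of 0.00762. WSD1 (AT5G37300, chr5:14767426-14770396), the wax synthase that joins primary alcohols to fatty acids, had the lowest level of the 10, with 45.7 and 57.9 FPKM. It rose by 0.34, and the authors' deposited table gives it an adjusted p of 0.0299, the one nearest to the threshold among the genes that passed. The branch took 7.36% of the summed FPKM of the 10 genes in Col-0 and 8.02% in mee45-1.

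The export genes had log2 fold changes of opposite sign, and neither passed the test. ABCG11 (AT1G17840, chr1:6142402-6146521), a plasma membrane transporter needed for both wax and cutin, had 129 FPKM in Col-0 and 159 in mee45-1, a log2 fold change of 0.30 and, from the authors' deposited table, an adjusted p of 0.0887. ABCG12 (AT1G51500, chr1:19097712-19101265), also known as CER5 and needed for wax export in stems, had 221 and 183 FPKM. Its log2 fold change was -0.27, the only one below 0 among the 10, and the authors' deposited table gives it an adjusted p of 0.0949. ABCG12 stood at 1.71 times ABCG11 in Col-0 and at 1.15 times in mee45-1. The summed level of both was 349 FPKM in Col-0 and 342 in mee45-1.

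**Figure D2:**
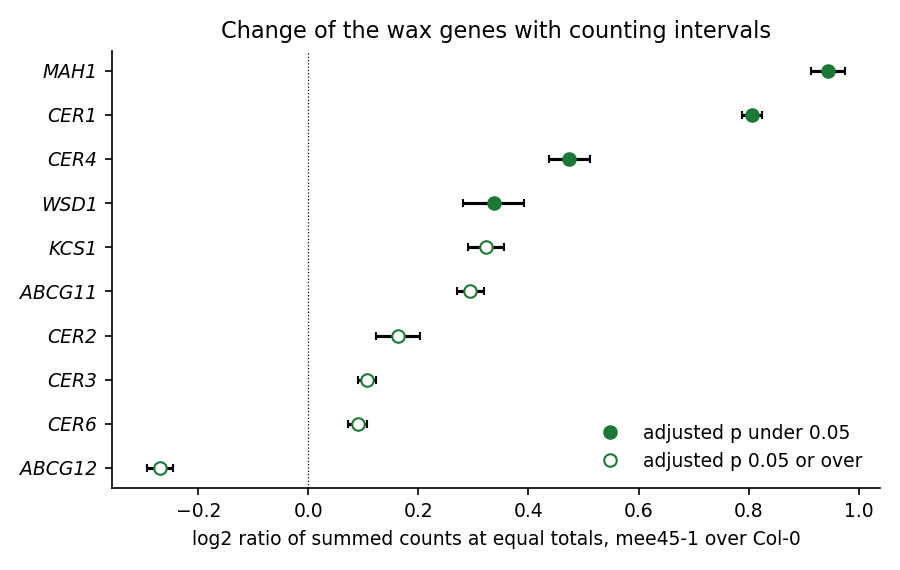
Log2 ratio of summed counts at equal totals, mee45-1 over Col-0, for each of the 10 wax genes, with exact 95% binomial counting intervals as bars; filled points had an adjusted p under 0.05 in the authors' deposited table. MAH1 and CER1 lie farthest to the right, and ABCG12 is the only gene left of 0.

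The reads of some genes could be shared with others. ABCG11 overlaps AT1G17850 on the other strand by 596 bases, and its summed counts were not whole numbers, unlike those of the other 9 genes. CER2 overlaps AT4G24520 on the other strand by 96 bases. The reference also places noncoding RNA genes on the other strand, AT1G05337 over 429 bases of ABCG11 and AT4G07275 over 316 bases of CER2, for which no values were used here. Neither protein-coding neighbour passed the test, with log2 fold changes of 0.36 for AT1G17850 and 0.04 for AT4G24520, and no source used here says whether the counting used strand. Among other transcripts, the closest match to CER6 was KCS5, at 81.3% identity over 1475 bases, and that to ABCG12 was ABCG15, at 81.3% over 2085 bases. The closest match to MAH1 was CYP96A4, at 73.1% over 1451 bases, and CYP96A4 fell, at -0.49.

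The genomic neighbours of CER1 and ABCG12 belong to the same families. CER1-LIKE 1 (AT1G02190), on the same strand, ends 388 bases before CER1 with no annotated gene between, and the best-matching stretch of their transcripts was 118 bases at 91.5% identity. CER1-LIKE 1 rose as CER1 did, by 1.03, from 18.4 FPKM in Col-0 to 37.5 in mee45-1, and the authors' deposited table gives it an adjusted p of 2.86e-06. ABCG13 (AT1G51460), a transporter needed for the cuticle of flowers, lies 16260 bases from ABCG12 with 3 genes between them. ABCG13 rose by 0.81, from 22.8 to 39.9 FPKM, and the authors' deposited table gives it an adjusted p of 1.53e-07.

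The elongase has further subunits, and malonyl-CoA feeds it. Of 5 further genes of acyl supply and elongation, 2 rose and none fell, with a median log2 fold change of 0.26. Over all genes tested, 6.67% were higher and 9.15% lower by the same rule. CER10 (AT3G55360), the enoyl-CoA reductase of the elongase, rose by 0.58, from 120 to 179 FPKM, and ACC1 (AT1G36160), the cytosolic acetyl-CoA carboxylase that supplies malonyl-CoA, rose by 0.38. KCR1, PAS2 and the acyl-CoA synthetase gene LACS1 did not pass the test, at 0.13, 0.26 and 0.18.

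Among the remaining 3-ketoacyl-CoA synthases more genes fell than rose. Of 18 tested genes of the KCS family beside CER6 and KCS1, 2 rose, 6 fell and 10 missed the threshold, with a median of -0.30. The shares over all genes tested were 6.67% higher and 9.15% lower. FAE1 (KCS18, AT4G34520), which elongates the fatty acids of seed oil, fell, with a log2 fold change of -3.71, from 22.4 FPKM in Col-0 to 1.72 in mee45-1. KCS16 (AT4G34250) fell, at -5.86, from 328 summed counts to 6, and KCS19 (AT5G04530, deposited as KCS21) fell, at -1.09, from 140 to 65.7 FPKM. The others that fell were KCS8, from 33.5 to 23.6 FPKM, KCS7, from 1.35 to 0.47, and KCS17 (AT4G34510, deposited as KCS2), from 0.48 to 0.17. KCS16, at 3.10 FPKM in Col-0, KCS7 and KCS17 were thus scarce in both genotypes. FDH (KCS10, AT2G26250), an epidermal synthase needed to keep organs from fusing, rose by 0.32. KCS5, also called CER60, the closest relative of CER6, had a value of 0.09 and did not pass the test. FDH, KCS5, KCS7, KCS8 and KCS17 were chosen for naming after their values were seen.

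Relatives of the branch enzymes were mostly scarce. Beside the counts that follow, 6.67% of all genes tested were higher and 9.15% lower. Of 7 other fatty acyl reductases 1 rose, FAR1 (AT5G22500), known from suberin alcohols, by 1.14 from 1.37 to 3.04 FPKM. Of 10 other wax synthase-like genes 3 rose and 1 fell. AT2G38995 and AT1G72110, both described in the deposited table as WSD1-like acyltransferases, rose by 1.84 and 1.45, and AT5G16350 by 0.64. The highest level among these 10 was 13.8 FPKM, whereas WSD1 itself stood at 45.7 and 57.9 FPKM. Among 8 tested CYP96A relatives of MAH1, 3 rose and 3 fell, with CYP96A9 (AT4G39480) at 1.59, CYP96A2 (AT4G32170) at 0.87 and CYP96A11 (AT4G39500) at -0.86. Of 4 relatives of CER1 and CER2, CER1-LIKE 1 was the only one to rise, and CER26, the CER2 relative with the highest level, had 219 and 246 FPKM without passing the test.

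Of 5 further genes of export, 2 rose and 1 fell. Besides ABCG13, LTPG2 (AT3G43720), a membrane-anchored lipid transfer protein of wax export, rose by 0.75 from 145 to 245 FPKM, while LTPG1 was at 0.20 without passing the test. ABCG15 (AT3G21090) fell, at -1.13. Of 14 regulators of wax and cuticle, 4 rose, 1 fell and 9 missed the threshold, with a median of 0.03. For the export genes and the regulators alike, the shares over all genes tested were 6.67% higher and 9.15% lower. MYB106 (AT3G01140) and MYB16 (AT5G15310), MIXTA-like factors of epidermal cell shape and cuticle, rose by 1.25 and 1.01, and SHN3 (AT5G25390), an AP2-domain factor of cuticle formation, rose by 0.65. Among factors known to act on wax genes, MYB94 rose by 0.32, and DEWAX, known as a repressor of wax genes, fell, at -0.51. MYB96 and MYB30 were at -0.26 and -0.21 without passing the test. AT5G07580, deposited as ERF106 and listed here as DEWAX2, was at 0.03 and CER9 at 0.05, and neither passed the test. MYB94, DEWAX, MYB96, MYB30, AT5G07580 and CER9 were chosen for naming after their values were seen.

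Most of the cutin enzymes rose. Of 16, 15 rose and none fell, with a median log2 fold change of 0.75, and their summed level was 716 FPKM in Col-0 and 1166 in mee45-1. Whether this list differed from the wax genes was not tested. LTL1 (AT3G04290) and AT5G33370, both GDSL lipase genes, rose by 2.73 and 2.24, and GPAT8 (AT4G00400), a glycerol-3-phosphate acyltransferase of cutin, rose by 1.30. The gene that did not pass was CYP86A2, at 0.29. Of 7 suberin genes, a list that leaves out FAR1, none rose, 2 fell and 5 missed the threshold, with a median of 0.11. Those that fell were ASFT (AT5G41040) at -1.15 and ABCG20 (AT3G53510) at -0.58. In the deposited KEGG annotation, the pathway of cutin, suberin and wax synthesis held 38 tested genes, of which 14 rose and 6 fell. CER1, MAH1, CER4 and WSD1 are the 4 wax genes in it, and without them 10 of 34 rose and 6 fell. Any genes this pathway shares with the cutin and suberin lists were not taken out, so its counts are not separate from theirs. For the cutin, suberin and KEGG counts alike, the shares over all genes tested were 6.67% higher and 9.15% lower. All adjusted p-values behind these calls are those of the authors' deposited table.

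**Figure D3:**
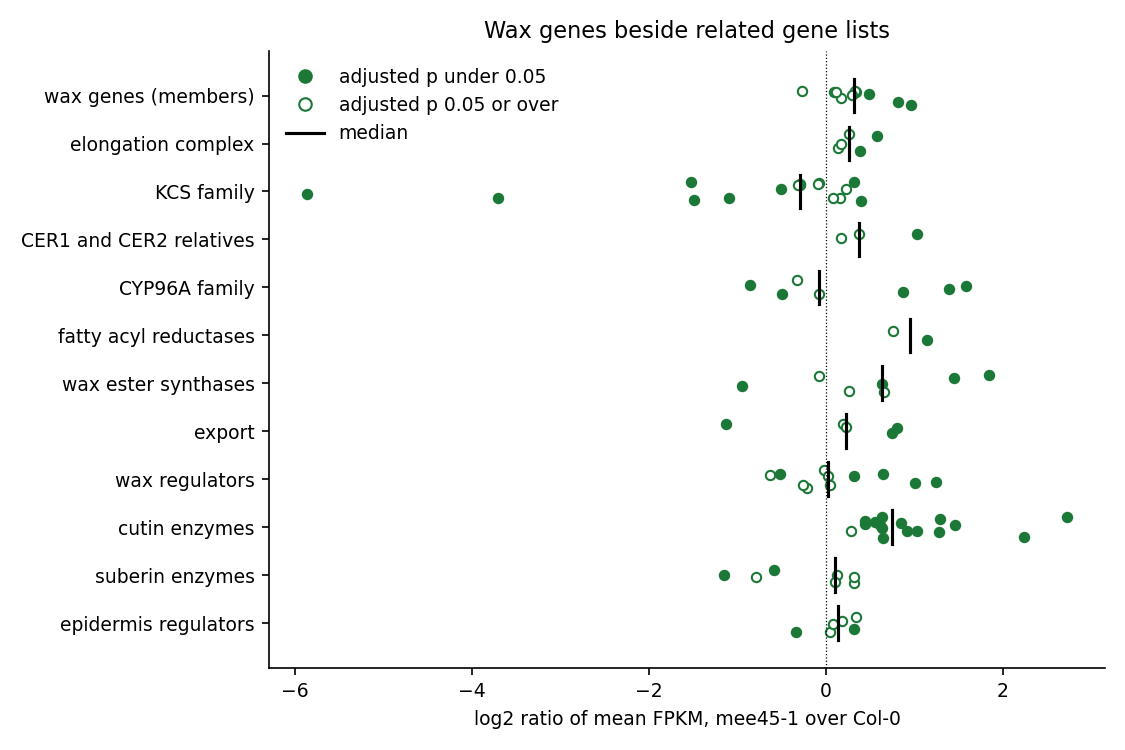
Log2 fold change in mee45-1 relative to Col-0, from mean FPKM, for tested genes with at least 10 mean counts in either genotype, in rows for the wax genes and for related lists; filled points had an adjusted p under 0.05 in the authors' deposited table, and black ticks are medians. The cutin enzymes lie right of the wax genes, with a median of 0.75 against 0.32, and the KCS family extends to -5.86.

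In bulk siliques, a change in the number of cells of a type and a change in RNA per cell cannot be told apart. Both genotypes were taken 4 days after pollination, and whether their seeds were at the same stage was not tested. Of 6 epidermal genes, FDH rose, HDG2 (AT1G05230) fell, at -0.34, and 4 did not pass the test. For these and the tissue markers below, the shares over all genes tested were 6.67% higher and 9.15% lower. ATML1, a homeodomain factor that defines the epidermis, had 69.0 FPKM in Col-0 and 73.2 in mee45-1, and its relative PDF2 had 34.2 and 35.5. The summed level of the 6 was 402 and 463 FPKM, and of the 5 without FDH, which is also a KCS gene, 163 and 164 FPKM. Markers of other tissues were present in both genotypes. The 5 of the silique wall and valve margin summed to 395 and 411 FPKM (2 higher, 1 lower). Of these, SHP1 rose, from 89.6 to 119 FPKM, and SHP2 fell, from 169 to 134. The 5 of the seed coat summed to 597 and 727 FPKM (2 higher, 1 lower). BAN alone had 466 and 573 FPKM of that and did not pass the test. The 5 of the endosperm summed to 36.8 and 52.7 FPKM (3 higher). Those of the embryo summed to 114 and 58.9 FPKM, with 3 of 4 lower. The 4 seed maturation markers all fell, from a sum of 1747 FPKM to 8.48. Of 3 pollen genes 1 fell, VEX1 (AT5G62850, deposited as SWEET5), from 11.3 to 2.82 FPKM. The 3 summed to 49.4 and 56.3 FPKM, of which AT5G45880 had 37.5 and 53.0 without passing the test. Neither the files nor the reference give a pollen name for AT5G45880, and they do not give the name VEX1 either. Without AT5G45880 the other 2 summed to 11.9 and 3.34 FPKM, nearly all of it VEX1, as GEX1 had 0.64 and 0.52. The part of these shifts in the changes of the wax genes was not tested.

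**Figure D4:**
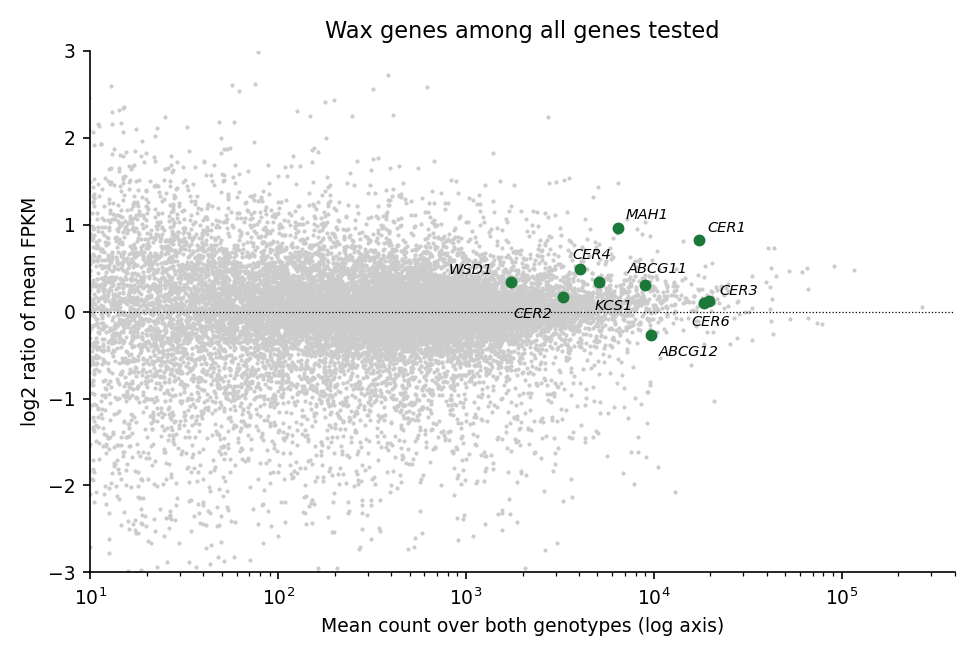
Log2 ratio of mean FPKM against the mean count over both genotypes (log axis), with the 10 wax genes in green. Tested genes at 0 in either genotype have no ratio and are left out. Of the 24055 others, 3444 with fewer than 10 mean counts or beyond 3 on the log2 axis are not drawn. The wax genes lie towards the right, among the abundant genes, with MAH1 at 0.96, CER1 at 0.82 and ABCG12 alone below 0.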

How the data were processed

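PolyA RNA from siliques of 3 Col-0 and 3 mee45-1 libraries was sequenced, per the labels. The build is TAIR10 per the submitters' processing notes, which list, without roles, edgeR, RSEM, Cufflinks, TopHat2 (2.0.3.12), fastp (0.18.0) and Bowtie2 (2.2.8). The deposited estimated counts and FPKM were averaged per genotype by the authors. The authors' deposited table also holds a log2 fold change, a p-value and an adjusted p-value per gene, the last equal to a Benjamini-Hochberg adjustment over 25434 tested genes; 6174 genes were not tested. Zeros of FPKM, written as 0.001 in that table, were taken from the expression table. A count test per library was planned and could not be run on means, so calls use the authors' adjusted p under 0.05. Log2 ratios of mean FPKM, counting intervals (Clopper-Pearson, on summed counts rounded to whole numbers) and list counts were computed here with Python 3.11.15 and scipy 1.17.1. Only the counting interval and the ratio of counts were tested on simulated data, which held counting error alone. PCR reads are not independent molecules, so intervals cover counting error only. List medians are over tested genes above 0 in both genotypes.

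All 10 wax genes are named, and of each other list up to 3 genes past the threshold with the smallest p; in tissue marker lists counts stand in for most names. Other genes named, such as ATML1, PDF2, LTPG1, CER26, KCR1, PAS2, LACS1, CYP96A4 and CYP86A2, were chosen after their values were seen. The 10 genes and the lists were chosen with earlier results of these data known. Coordinates and sequences are from RefSeq's TAIR10.1, the files giving none; windows start at the outermost annotated start.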

Additional observations from a re-analysis of the deposited data

How the results depend on the processing

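Of the wax genes, 4 were higher in mee45-1 and none lower at an adjusted p under 0.05 in the authors' deposited table. With a change of at least 1.5-fold as well, 2 were higher, and with at least 2-fold, 0. At an unadjusted p under 0.05 in the same deposited table, an alternative chosen after seeing the data, 6 were higher and 1 lower. Of all genes tested, 11.4% were higher and 13.5% lower by that rule. An adjusted p under 0.01 left 3 higher, and an adjustment over the 21045 genes with at least 10 mean counts in either genotype gave 4. The share of all genes called under that second adjustment was not counted, so its 4 has no background beside it. Under scaling by the median ratio or by total counts and pseudocounts of 1 and 0.1, the largest shift of a wax gene's log2 value was 0.025, and of these 40 values 39 stayed within the counting interval when it is centred on the log2 ratio of FPKM. CER1 under median-ratio scaling was the other, at 0.800, just under that interval's lower end of 0.804 though inside the interval on counts. Of 34 counts of calls over the other lists, 9 moved by more than 1.5 times at an adjusted p under 0.01 and 0 with the count minimum. By CPM in place of FPKM, which leaves out transcript length, 6 of the 10 genes kept their place in the order of levels in Col-0 and 5 in mee45-1.

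No paired analysis was possible because the deposited values are averages per genotype; leaving out a library, DESeq2 and other size factors were not run on that account. Counting error is small at the depth of the wax genes, and the spread between libraries cannot be given from these values.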
